A study of Arabidopsis thaliana with 18 samples.

Results

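The 31 genes described here were low in WT *Arabidopsis* seed coats and endosperms after 48 h in the cold, while in WT seeds that had aged for the same time in the warm they were at most slightly lower. They were chosen from the WT libraries alone, out of 37861 nuclear genes with a number, 0 included, in every file. Levels are CPM, the counts of a gene scaled to 1000000 counts of its library. A chosen gene had a log2(mean CPM + 1) after 48 h of cold at least 1 below that at 11 DAP (days after pollination), and a level at 13 DAP between 0.3 below and 1.5 above that at 11 DAP on the same scale. In addition, its highest library after 48 h of cold lay below its lowest library at 11 DAP and at 13 DAP. Of 783 genes that met the first condition, 719 were lower at 13 DAP by more than the limit and 3 were higher by more than the limit. Of the 61 that remained, 30 had overlapping libraries.

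RNA came from hand-dissected seed coats and endosperms, with 3 libraries in each of 6 groups. The WT groups, of the ecotype Col, were 11 DAP at 22 °C, 11 DAP followed by 6 h in the cold, 11 DAP followed by 48 h in the cold (11 DAP+Cold), and 13 DAP at 22 °C. The mutant groups were *myb107-2* at 11 DAP at 22 °C and *myb107-2* at 11 DAP+Cold. Cold was 13 °C in the sample labels, which also give a lower humidity for the cold than for the warm growth conditions. Each sample pooled seeds of several plants. Nothing says whether the samples of a group came from different plants, so p-values measure the spread between these samples.

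The levels in WT at 11 DAP, 11 DAP+Cold and 13 DAP chose the genes and are given as a description without a test. The libraries at 6 h share the 11 DAP controls with the rule, and their levels are also a description. The 6 libraries of *myb107-2* had no part in the choice. The change between *myb107-2* at 11 DAP+Cold and at 11 DAP was therefore tested, over all 24576 genes with a count in these libraries, with the quasi-likelihood test of edgeR. A call needed a p of 0.05 or less after Benjamini-Hochberg adjustment over all these genes, together with a change of 1 or more on the log2 scale. SE is the standard error of the log2 fold change.

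Library totals ranged from 43.1 M to 84.0 M counts, and the limit of detection, set at 3 counts, lay between 0.0357 and 0.0695 CPM. *MYB107* itself lay between 2.80 and 5.31 CPM in the 6 *myb107-2* libraries and between 18.7 and 65 CPM in the 12 WT libraries. One library stood apart in its counts outside protein-coding genes. In replicate 1 of WT at 13 DAP, 47.0% of the counts came from genes that do not code for proteins, against 6.68% to 17.1% in the other 17 libraries. This library was the lowest of its group for 29 of the 31 genes, and for 25 when CPM was computed over protein-coding genes only. Without it the rule found 72 genes, of which 25 were among the 31. Replicate 1 of WT at 11 DAP was the lowest of its group for 17 of the 31 genes and the highest for 0. The 8 seed coat markers summed to between 3607 and 4461 CPM in WT at 11 DAP, 2334 to 3589 after 6 h, 1603 to 2980 after 48 h, and 633 to 1742 at 13 DAP. In *myb107-2* they summed to 2670 to 4039 CPM at 11 DAP and 2247 to 2342 at 11 DAP+Cold. By these sums, seed coat markers were lower after 48 h of cold than at 11 DAP in both genotypes. *TTG2* went the other way, with means of 28.1 against 18.7 CPM in WT and 27.8 against 19.9 CPM in *myb107-2*. None of the 8 was at 0 in every library. Of the 5 endosperm markers, *EXPA2* was at 0 in all groups, while *EPR1* had a mean of 11750 CPM or more in each group. The endosperm markers did not move together. After 48 h of cold against 11 DAP, the means of *EPR1* and *MFT* were higher in both genotypes. *MAN7* was lower, at 214 against 542 CPM in WT and 111.7 against 270.5 CPM in *myb107-2*. *ZOU* was higher in WT and slightly lower in *myb107-2*. Of the 6 embryo markers, *CUC2* was at 0 in all groups and only *CUC1* had a group mean above 1 CPM. The part of tissue composition in the results was not tested, and in these bulk samples fewer cells of a type and less RNA per cell cannot be told apart.

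Over the 31 genes, the level after 48 h of cold had a median of 20.4% of that at 11 DAP. The difference on the scale of log2(mean CPM + 1) ranged from -4.03 to -1.04, with a median of -1.60. At 13 DAP the median was 123% of the 11 DAP level, and 25 of the 31 genes had a higher mean at 13 DAP than at 11 DAP, while 6 had a lower one. No gene had all its 13 DAP libraries above all its 11 DAP libraries. The median difference between the ages was 0.27 on the scale of log2(mean CPM + 1), and without replicate 1 of 13 DAP it was 0.65, with 28 genes higher. The genes lie on all chromosomes, with 6, 5, 6, 8 and 6 genes on chromosomes 1 to 5 of TAIR10.1. Of the 31, 29 code for proteins, and the others are an uncharacterized RNA, AT1G04107, and a long non-coding RNA, AT2G31751. A single exon made up 8 of the 31 genes (25.8%), against 824 of the 6296 genes (13.1%) that met the condition on age and the minimum level. Nearest to the limit of -1 on the inside were AT5G02550 (-1.04), AT4G36430 (-1.08) and AT2G31751 (-1.14). Just outside lay AT2G29340 and AT3G60910 (both -0.99), and AT2G23840 (-0.965).

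**Figure D1:**
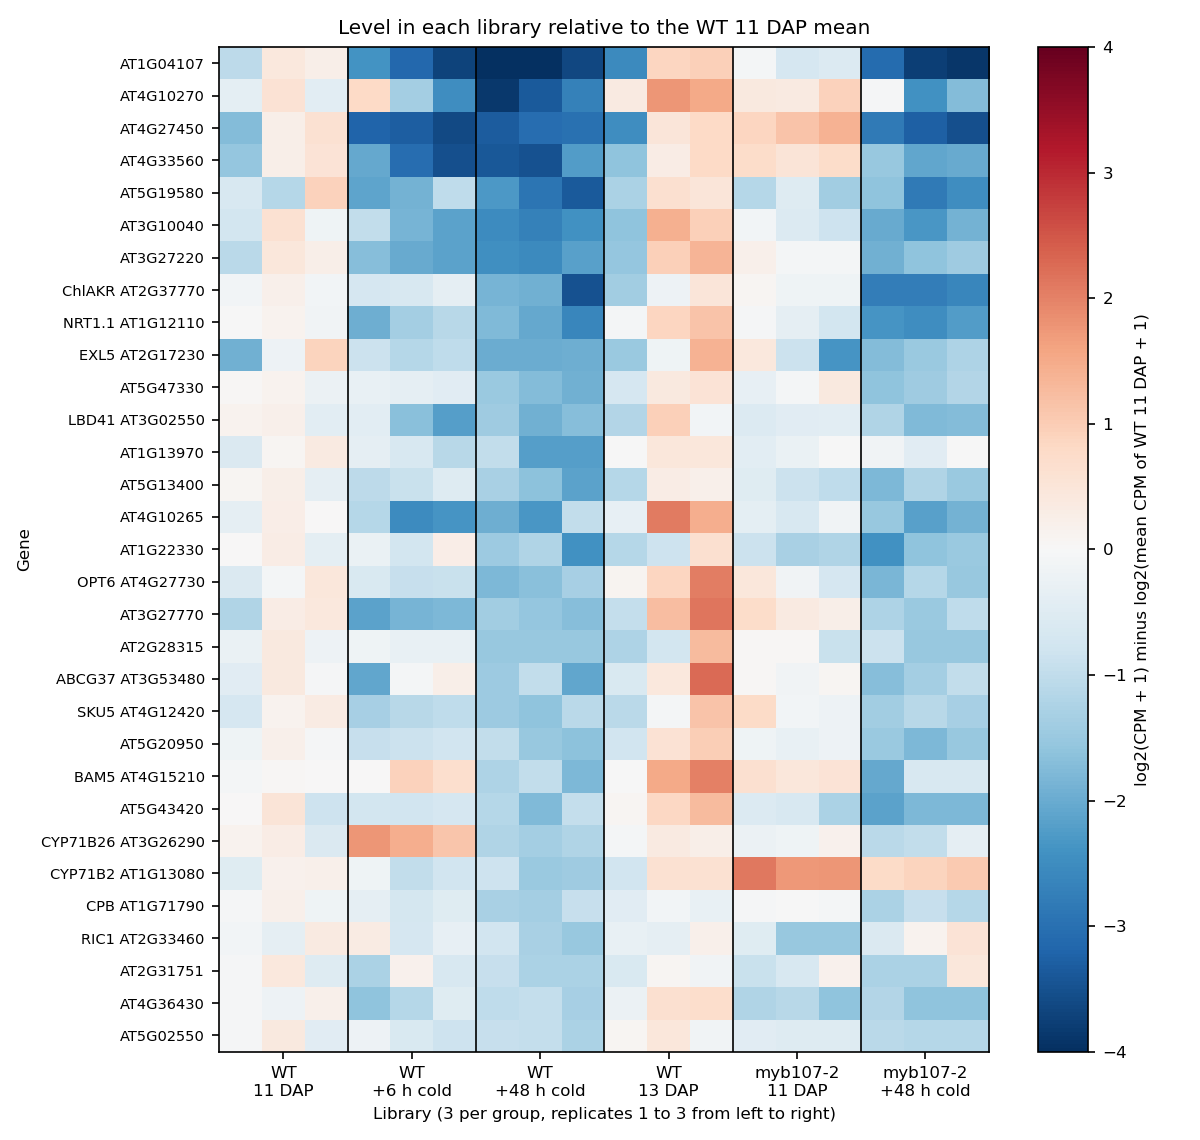
Level of the 31 genes (rows, ordered by the WT difference at 48 h) in the 18 libraries (columns, 3 per group), as log2(CPM + 1) minus log2(mean CPM + 1) of WT at 11 DAP, with blue for lower and red for higher levels. The 3 WT libraries after 48 h of cold are blue for every gene because they were chosen so, and the *myb107-2* libraries at 11 DAP+Cold, which had no part in the choice, are blue for most genes.

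In *myb107-2*, 20 of the 31 genes fell at 11 DAP+Cold against 11 DAP and 1 rose (edgeR). No *myb107-2* group at 13 DAP was among the samples. Cold and the age gained during it therefore cannot be told apart in this comparison. Of all genes tested, 4.17% were called lower (1024 genes) and 4.43% were called higher (1088 genes). The 31 genes had a median log2 fold change of -1.47 (quartiles -2.04 and -0.90), against -0.03 over all genes tested (quartiles -0.49 and 0.42). The estimate was negative for 28 of the 31. By levels alone, 25 genes had all 3 cold libraries of *myb107-2* below all 3 warm ones, which held for 20.8% of the 26954 genes with a count. Of the 18 genes with at least 10 CPM in WT at 11 DAP, 14 were called lower, and of the 13 below that level, 6 were. Of these 20 genes, 15 kept the call in every alternative fit that held them. The plot of the fold changes in *myb107-2* shows the genes in the order of their estimates.

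**Figure D2:**
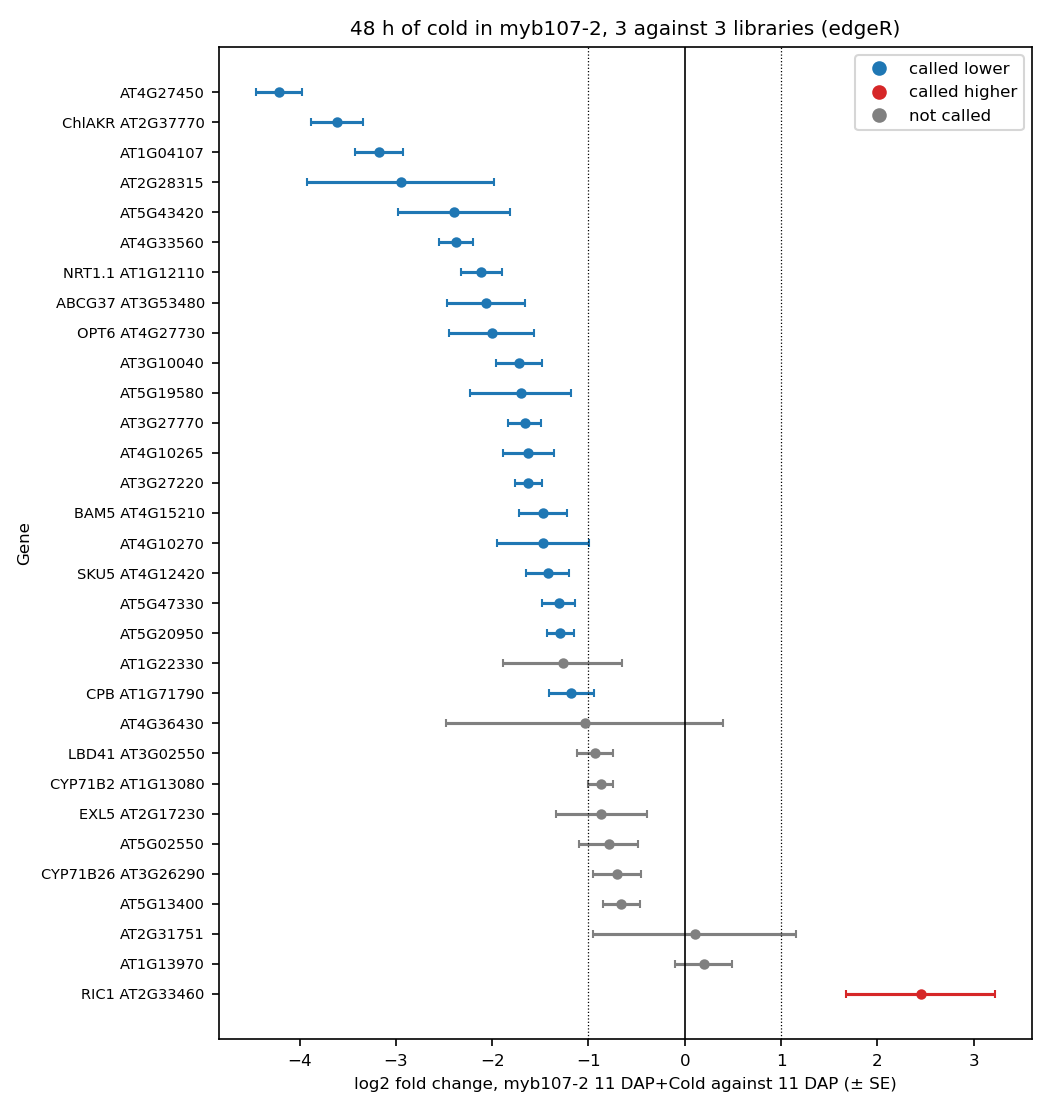
Log2 fold change of the 31 genes in *myb107-2* at 11 DAP+Cold against 11 DAP (horizontal axis, points with standard errors, n = 3 against 3 libraries, edgeR), with dotted lines at -1 and 1. The 20 genes called lower are blue and reach down to -4.21 for AT4G27450, the 10 not called are grey, and *RIC1* at 2.45 is the gene called higher.

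After 6 h of cold, part of the genes stood low. No warm group taken 6 h after 11 DAP was among the samples, so cold and elapsed time cannot be told apart here. At this time 29 of the 31 genes had a mean below that at 11 DAP, and the median level was 52.2% of it. With a difference of at least 1 and no overlap between the libraries, 11 genes were low at 6 h, 1 was high, and 19 were neither. Over all genes with a count, 1.04% were low and 0.605% were high by the same criteria, and 2.66% were low at 48 h. Because the 11 DAP libraries are shared with the rule, nothing is read from these shares. The mean at 48 h was below that at 6 h for 28 genes, and for 18 of them without overlap of the libraries. The exceptions were AT4G27450, AT3G27770 and AT4G10265, whose lowest group mean was at 6 h. The rule chose genes that were low at 48 h, and the share over all genes was not computed. Nothing is therefore read from the counts of 48 h against 6 h either. Of the 11 genes low at 6 h, 9 were called lower in *myb107-2*, and of the 19 that were neither, 11 were.

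**Figure D3:**
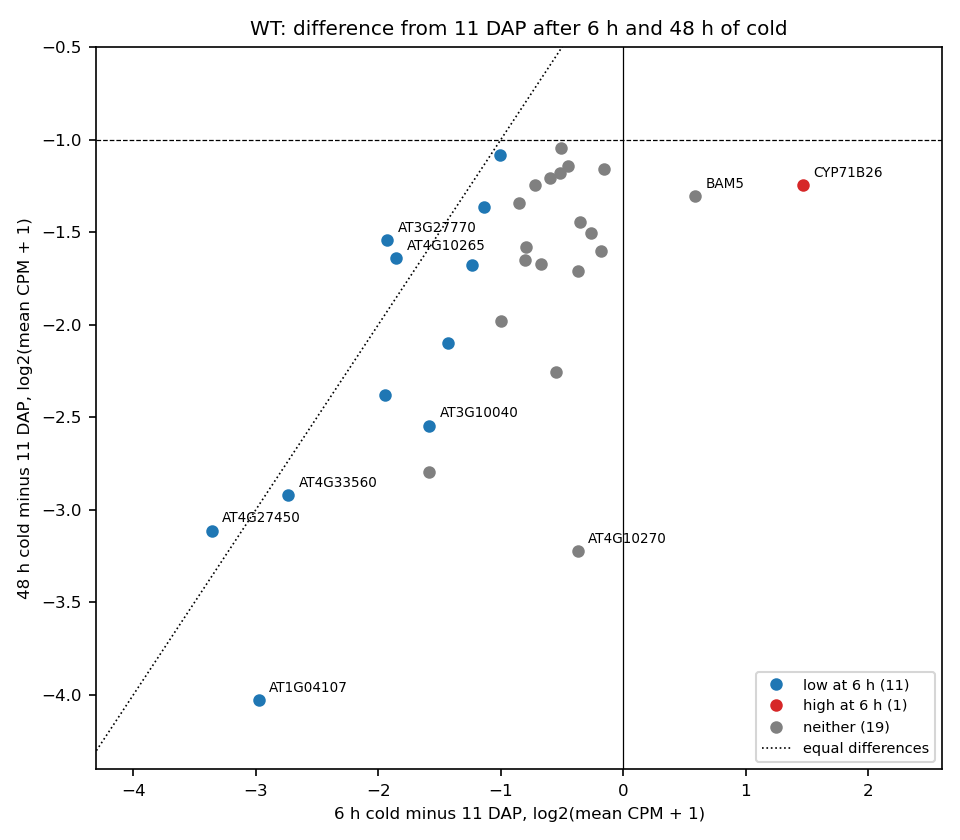
Difference from WT at 11 DAP after 6 h (horizontal axis) and after 48 h of cold (vertical axis) for the 31 genes, both as log2(mean CPM + 1), with the dotted line at equal differences and the dashed line at the limit of -1 that chose the genes. The 11 genes low at 6 h are blue, and *CYP71B26*, the gene high at 6 h, is red at 1.47.

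Several of the 31 genes are known from the response to low oxygen. Plant cells sense oxygen through an enzymatic mark on group VII ethylene response factors: with oxygen these factors are destroyed, and when oxygen runs short they accumulate and switch on a common set of genes for fermentation, sugar use and regulation. Seeds have a low internal oxygen level during much of their development, and this set is often active in them. A list of 48 genes of this response was compiled from general knowledge after the 31 genes had been seen, and 6 of the 31 are on it. They are *LBD41*, AT3G10040 (also named *HRA1*), AT4G27450, AT4G33560, AT4G10270 and AT3G27220. In *myb107-2*, 5 of these 6 were called lower. The choice of several of them depended on single libraries. Without replicate 3 of WT at 13 DAP the rule did not choose AT4G27450 and AT4G33560, and without replicate 2 not *LBD41*. AT4G10270 was not chosen without replicate 1 of WT at 13 DAP or without replicate 2 of WT at 11 DAP. The list was drawn up with the result in view, so it is no independent evidence.

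AT4G27450, annotated as an aluminum induced protein with YGL and LRDR motifs (chromosome 4, 13727370 to 13729002, 4 exons), had the lowest estimate of the 31 in *myb107-2*. Its libraries stood at 110.2, 434 and 554 CPM in WT at 11 DAP, at 39.1, 36.3 and 29.0 CPM after 6 h, at 35.7, 43.2 and 45.4 CPM after 48 h, and at 64.2, 516 and 637 CPM at 13 DAP. Replicate 1 was the lowest at both ages, and it still lay above every cold library. In *myb107-2* the gene stood at 661, 807 and 969 CPM at 11 DAP and at 50.4, 37.4 and 31.2 CPM at 11 DAP+Cold. The *myb107-2* groups lay far apart, with a log2 fold change of -4.21 (SE 0.24, adjusted p = 3.8e-07, edgeR), which left 4.88% of the warm level. The gene overlaps AT4G27440 on the other strand, and whether the counting used the strand is not given in the sources used here.

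*LBD41* (chromosome 3, 536500 to 538126), a LOB domain transcription factor, stood at 228, 240.3 and 155 CPM in WT at 11 DAP. After 6 h it stood at 154, 64.6 and 44.6 CPM, so that the highest library at 6 h nearly reached the lowest at 11 DAP. After 48 h the values were 76.4, 54.0 and 62.6 CPM, and at 13 DAP 91.4, 403 and 193 CPM. In *myb107-2* it went from 141, 153 and 156 CPM at 11 DAP to 90.5, 60.6 and 62.4 CPM at 11 DAP+Cold without overlap. The log2 fold change was -0.93 (SE 0.18, adjusted p = 0.0038, edgeR), which passed the p-value and missed the fold change minimum.

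AT3G10040 (chromosome 3, 3096345 to 3098417, 1 exon) is annotated as a DNA-binding transcription factor and is known as a trihelix protein that restrains the low oxygen response. Its WT libraries stood at 11.0, 29.7 and 16.8 CPM at 11 DAP, at 9.10, 4.51 and 3.55 CPM after 6 h, at 2.53, 2.1 and 2.74 CPM after 48 h, and at 5.56, 52.6 and 37.8 CPM at 13 DAP. The levels were thus intermediate at 6 h. In *myb107-2* it fell from 17.57, 12.9 and 10.5 CPM to 4.01, 3.00 and 4.44 CPM, with a log2 fold change of -1.72 (SE 0.24, adjusted p = 0.00032, edgeR).

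Of the 31 genes, 3 are annotated as Wound-responsive family proteins (9.68%), as are 8 of the 6296 genes that met the condition on age and the minimum level (0.127%). This family was counted after the 31 genes had been seen, so its share is a description. Small proteins of this family are induced by wounding and some by lack of oxygen. AT4G33560 (chromosome 4, 16135157 to 16135921, 1 exon) stood at 48.0, 169 and 211 CPM in WT at 11 DAP and at 33.8, 16.4 and 11.6 CPM after 6 h. After 48 h it stood at 12.6, 11.8 and 29.6 CPM, and at 13 DAP at 46.0, 175 and 250.4 CPM. In *myb107-2* its 3 warm libraries, at 237, 203 and 236 CPM, lay above its 3 cold libraries at 49.5, 33.4 and 34.6 CPM (log2 fold change -2.38, SE 0.18, adjusted p = 3.1e-06, edgeR).

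The other Wound-responsive genes are neighbours on chromosome 4. AT4G10265 (6373008 to 6373667, minus strand) and AT4G10270 (6374734 to 6375210, plus strand) start in opposite directions with 1066 bases between them. AT4G10270 stood at 55.7, 110.2 and 54.5 CPM in WT at 11 DAP, at 129.5, 27.9 and 12.3 CPM after 6 h, at 4.18, 6.19 and 10.5 CPM after 48 h, and at 94.9, 250.4 and 214 CPM at 13 DAP. Replicate 1 at 6 h was above every 11 DAP library, and the other two were below. In *myb107-2* it was at 96.8, 94.3 and 141 CPM at 11 DAP and at 71.0, 13.0 and 21.5 CPM at 11 DAP+Cold. The log2 fold change of -1.47 (SE 0.48, adjusted p = 0.049, edgeR) passed narrowly, and the call was lost in 5 of the 6 fits without 1 of the libraries, where the estimate ranged from -2.61 to -1.05. AT4G10270 overlaps AT4G05775 and AT4G10280 on the other strand. AT4G10265 stood at 9.84, 15.8 and 12.8 CPM in WT at 11 DAP and 2.58, 1.74 and 5.98 CPM after 48 h. In *myb107-2* it fell from 9.59, 7.84 and 11.6 CPM to 3.80, 2.1 and 2.71 CPM (log2 fold change -1.62, SE 0.26, adjusted p = 0.00092, edgeR).

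AT3G27220 (chromosome 3, 10051069 to 10053761, 7 exons), annotated as a Galactose oxidase/kelch repeat protein, stood at 14.6, 43.9 and 37.9 CPM in WT at 11 DAP. It was at 9.08, 7.16 and 6.51 CPM after 6 h, at 5.06, 4.64 and 6.4 CPM after 48 h, and at 10.4, 62.9 and 84.6 CPM at 13 DAP. All WT libraries of the cold lay below all WT libraries of the warm. In *myb107-2* it fell from 37.2, 30.2 and 30.1 CPM to 7.79, 9.93 and 11.3 CPM (log2 fold change -1.62, SE 0.14, adjusted p = 1.1e-05, edgeR).

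Of the other 42 genes on the low oxygen list, 32 missed the limit of -1 in WT, 6 had overlapping libraries, 3 were too low at 13 DAP and 1 was too high. Over the whole list, 16 of 48 genes had a WT difference of -1 or less at 48 h and 1 of 1 or more. The 16 include the 6 chosen genes, for which the rule fixed this. Among all 37861 genes, 783 had a difference of -1 or less. The list was compiled after the 31 genes had been seen, so nothing is read from these counts. In *myb107-2*, 13 of the 41 other genes tested were called lower and 4 higher, with a median log2 fold change of -0.68. Among them was *PDC1*, which encodes a pyruvate decarboxylase of ethanol fermentation, with a log2 fold change of -2.54 (SE 0.48, adjusted p = 0.0028, edgeR). The *myb107-2* libraries of *PDC1* varied widely at 11 DAP, at 109.6, 33.0 and 20.9 CPM. At 11 DAP+Cold they stood at 8.7, 7.3 and 9.4 CPM. *PDC1* was not among the 31 because replicate 1 of WT at 13 DAP, at 15.4 CPM, lay below its WT libraries at 48 h. These were at 25.7, 26.6 and 29.0 CPM. That replicate is the library with 47.0% of counts outside protein-coding genes, and without it the rule chose *PDC1*. *ADH1*, the alcohol dehydrogenase of the same pathway, fell in *myb107-2* from 606, 497 and 444 CPM to 237, 183 and 184 CPM (log2 fold change -1.21, SE 0.17, adjusted p = 0.00032, edgeR). In WT, however, the *ADH1* libraries at 48 h (152, 193 and 187 CPM) lay within the range of those at 11 DAP (84.7, 264 and 439 CPM). *SUS4*, a sucrose synthase on the list, rose in *myb107-2* with a log2 fold change of 1.41 (SE 0.22, adjusted p = 0.00069, edgeR), so the list did not move in one direction.

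**Figure D4:**
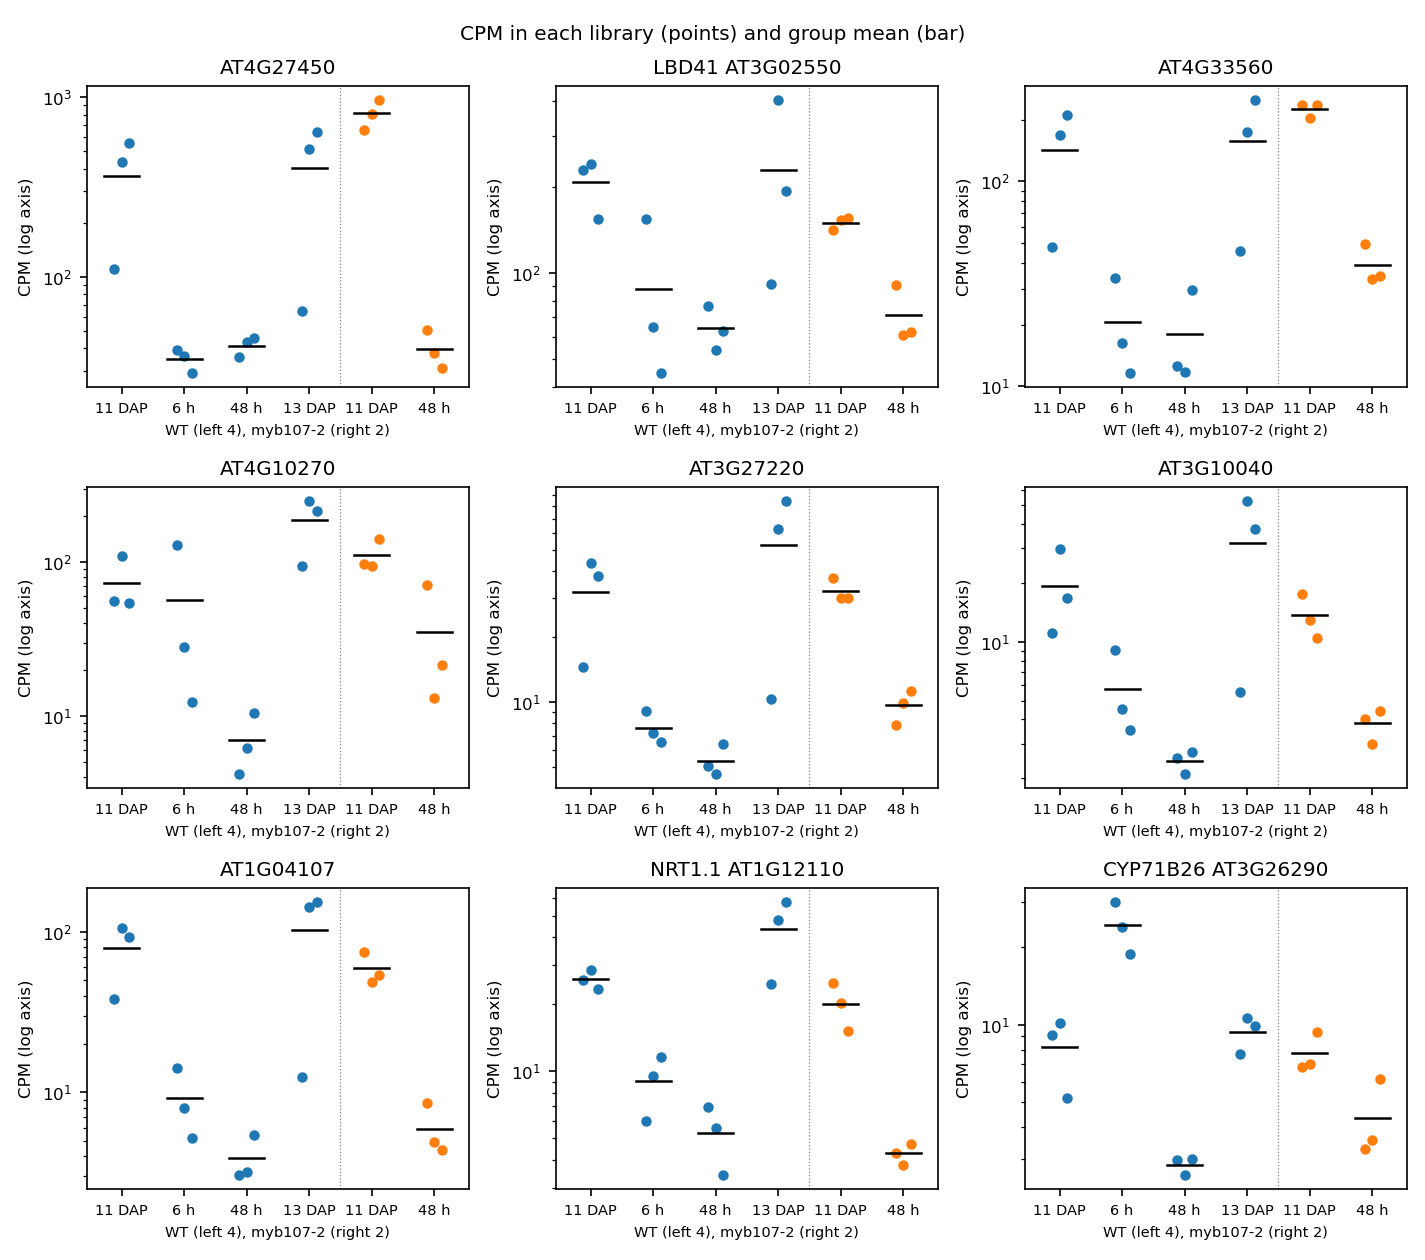
CPM in each of the 3 libraries per group (points, blue for WT and orange for *myb107-2*) with the group mean (bar), on a log axis, for the 6 genes on the low oxygen list, AT1G04107, *NRT1.1* and *CYP71B26*. The group mean after 48 h of cold is the lowest WT mean for most of these genes, although single libraries at 6 h and 48 h overlap for several. *CYP71B26* is highest at 6 h, between 18.8 and 30.02 CPM.

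The promoters of the 31 genes were read from the TAIR10.1 genome, from 250 bases before to 50 bases after the RefSeq gene start. A motif known to be bound by the group VII factors, the hypoxia-responsive promoter element (HRPE), was searched on both strands in a relaxed form (AAACCA, then 3 bases of any kind, then GC), which was added after the genes had been seen. It was found in 5 of the 31 promoters (16.1%) and in 377 of 37897 promoters of all genes (0.995%). The 5 genes are AT4G10270, AT4G10265, AT3G27220, AT1G04107 and *NRT1.1*, and 3 of these are not on the low oxygen list. All 5 were called lower in *myb107-2*, with log2 fold changes between -3.18 and -1.47, and so were 15 of the 26 genes without the motif, whose estimates ranged from -4.21 to 2.45. The difference between these sets was not tested, and the 5 include AT4G10270, whose call was lost in 5 of the 6 fits without 1 library. The match is a description and does not show that a factor binds. The sequences are shown because they place the motif in genes on and off the low oxygen list. AT4G10270 has 2 matches upstream of its start and AT1G04107 has 1, printed in capitals in the 250 bases before the start (chr4:6374484-6374733, plus strand, and chr1:471499-471748, minus strand, both 5′ to 3′ on the strand of the gene).
AT4G10270: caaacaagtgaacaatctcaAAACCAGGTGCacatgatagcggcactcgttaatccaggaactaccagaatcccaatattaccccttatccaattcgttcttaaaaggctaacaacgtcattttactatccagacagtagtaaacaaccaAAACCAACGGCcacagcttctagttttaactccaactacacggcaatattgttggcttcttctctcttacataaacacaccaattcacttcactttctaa
AT1G04107: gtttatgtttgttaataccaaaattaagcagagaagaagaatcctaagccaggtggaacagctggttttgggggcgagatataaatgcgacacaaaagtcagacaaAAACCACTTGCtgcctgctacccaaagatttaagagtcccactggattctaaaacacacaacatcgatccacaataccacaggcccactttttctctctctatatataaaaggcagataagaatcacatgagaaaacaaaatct

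In the other 3 promoters the matches lie after the gene start, and up to 30 bases around each are given, again with the match in capitals and on the strand of the gene. AT3G27220 has the same 11 letters at positions 10 and 40 after its start (chr3:10053733-10053762 and chr3:10053712-10053732, minus strand). The matches of AT4G10265 (chr4:6373635-6373664, minus strand) and *NRT1.1* (chr1:4105235-4105264, plus strand) start at positions 14 and 23.
AT3G27220 site 1: acaaaattggAAACCACCGGCgtgatttct
AT3G27220 site 2: ggttggggaaAAACCACCGGC
AT4G10265: gaaaccaagaAAACCAGCAGCtacaaaacc
NRT1.1: accacaaaagAAACCAAGAGCtctcaaaca

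Other motifs were counted in the same promoters. The G-box CACGTG was in 4 of the 31 promoters (12.9%, against 6.46% of all) and TATAAA, the TATA box, in 22 (71.0%, against 48.8%). The heat shock element GAANNTTC was in 3 (9.68%, against 11.4%), CCGAC, the core that CBF cold factors bind, in 6 (19.4%, against 15.3%), and ACGTG, the core of the abscisic acid response element, in 6 (19.4%, against 24.6%). ACGTG is contained in CACGTG. *LBD41* and AT3G27220 hold a G-box. The evening element AAAATATCT was in 1 promoter, that of *CYP71B26*, and ACCNACC, the AC element of phenylpropanoid genes, in none (7.39% of all). The GCC box GCCGCC, also added afterwards, was in 1, that of AT4G33560 (3.23%, against 2.72% of all).

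AT1G04107, an uncharacterized RNA of 1 exon (chromosome 1, 471127 to 471498), had the lowest WT difference of the 31, at -4.03. Its libraries stood at 37.9, 106 and 92.7 CPM at 11 DAP, at 14.3, 8.01 and 5.19 CPM after 6 h, at 3.04, 3.22 and 5.45 CPM after 48 h, and at 12.6, 143 and 154 CPM at 13 DAP. The lowest library at 6 h lay just below the highest at 48 h, and all others at 6 h lay above those at 48 h. In *myb107-2* it fell from 75.2, 48.8 and 53.8 CPM to 8.56, 4.89 and 4.40 CPM (log2 fold change -3.18, SE 0.25, adjusted p = 4.2e-06, edgeR).

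The word transporter is in the annotation of 3 of the 31 genes (9.68%, against 1.56% of the 6296 genes), *NRT1.1*, *OPT6* and AT2G28315, and 2 further genes described with them, *ABCG37* and AT5G13400, were added to them by hand. *NRT1.1* (chromosome 1, 4105223 to 4109601, 5 exons), the nitrate transporter that also acts as a nitrate sensor and is linked to seed dormancy, stood at 25.8, 28.7 and 23.4 CPM in WT at 11 DAP. After 6 h it was at 6.00, 9.48 and 11.6 CPM, after 48 h at 6.90, 5.55 and 3.41 CPM, and at 13 DAP at 24.7, 48.1 and 57.9 CPM. The warm libraries of *myb107-2*, at 24.9, 20.2 and 15.3 CPM, lay above the cold ones at 4.31, 3.80 and 4.72 CPM, and the gene fell with a log2 fold change of -2.11 (SE 0.21, adjusted p = 2.9e-05, edgeR). *OPT6*, an oligopeptide transporter that overlaps genes on the other strand, stood at 2.77 to 6.67 CPM in WT at 11 DAP and 0.620 to 1.25 CPM after 48 h. It fell in *myb107-2* (log2 fold change -2.01, SE 0.45, adjusted p = 0.0074, edgeR). *ABCG37*, an exporter of the pleiotropic drug resistance type, stood at 2.11 to 4.59 CPM at 11 DAP and at or below 1.13 CPM after 48 h, with 1 library at 0. It also fell in *myb107-2* (log2 fold change -2.07, SE 0.40, adjusted p = 0.0035, edgeR), and the call was lost in 1 alternative fit. AT5G13400, of the Major facilitator superfamily, did not pass the fold change minimum (log2 fold change -0.66, SE 0.20, adjusted p = 0.033, edgeR).

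AT2G28315, a Nucleotide/sugar transporter family gene, had no count in any WT library after 48 h. At 11 DAP it stood at 1.35, 2.69 and 1.5 CPM, a mean of 1.84 CPM. Against 3 counts over the group, or 0.0158 CPM, the WT level at 11 DAP was at least 117-fold higher. At 13 DAP, however, the gene stood at 0.199, 0.720 and 5.88 CPM, with replicates 1 and 2 below every 11 DAP library. Without replicate 3 of 13 DAP the rule did not choose it. After 6 h it stood at 1.51, 1.31 and 1.3 CPM, so that the 6 h libraries were not yet near 0. In *myb107-2* it was at 1.93, 1.93 and 0.540 CPM at 11 DAP and at 0.557, 0 and 0 CPM at 11 DAP+Cold, and was called lower with a wide error (log2 fold change -2.95, SE 0.97, adjusted p = 0.048, edgeR). The call was lost in 4 of the 6 fits without 1 library, with estimates between -9.62 and -2.31.

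*ChlAKR*, an aldo-keto reductase that detoxifies reactive carbonyls in the chloroplast, stood at 9.38, 11.9 and 9.56 CPM in WT at 11 DAP and at 6.15, 6.23 and 7.76 CPM after 6 h. After 48 h it was at 2.08, 2.00 and 0 CPM, and at 13 DAP at 3.3, 8.70 and 14.9 CPM. Its 6 h libraries thus lay closer to those at 11 DAP than to those at 48 h. In *myb107-2* it fell from 11.0, 8.97 and 9.04 CPM to 0.655, 0.664 and 0.852 CPM, a log2 fold change of -3.61 (SE 0.27, adjusted p = 3.2e-06, edgeR). AT5G19580, related to glyoxal oxidase, was called lower in *myb107-2* (log2 fold change -1.71, SE 0.52, adjusted p = 0.039, edgeR), and the call was lost in 3 of the 6 fits without 1 library, with estimates between -2.67 and -1.28. The peroxidase AT4G36430 was at 0 in 3 of the 6 *myb107-2* libraries and between 0.334 and 0.416 CPM in the others, and gave no call.

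The 31 genes hold 2 cytochromes P450 (6.45%, against 0.588% of the 6296 genes), *CYP71B26* and *CYP71B2*, and neither was called in *myb107-2*. *CYP71B26* (chromosome 3, 9632608 to 9634822) stood at 9.09, 10.2 and 5.18 CPM in WT at 11 DAP, but at 30.02, 24.0 and 18.8 CPM after 6 h. After 48 h it was at 2.97, 2.6 and 3.01 CPM, and at 13 DAP at 7.66, 10.6 and 9.86 CPM. It was the only one of the 31 genes that was high at 6 h. In *myb107-2* it passed neither the p-value nor the fold change minimum (log2 fold change -0.70, SE 0.25, adjusted p = 0.068, edgeR). *CYP71B2* stood at 7.28, 11.9 and 12.3 CPM in WT at 11 DAP and at 5.52, 3.14 and 3.25 CPM after 48 h. The *myb107-2* libraries lay above the WT libraries at 11 DAP and at 11 DAP+Cold, at 48.2, 37.4 and 37.7 CPM at 11 DAP and at 18.6, 20.4 and 22.5 CPM at 11 DAP+Cold. All *myb107-2* libraries lay above all WT libraries for 3 of the 31 genes at 11 DAP and for 9 at 11 DAP+Cold. They lay below all WT libraries for 4 genes at 11 DAP and for 1 at 11 DAP+Cold. The shares over all genes were not computed, so nothing is read from these counts. The difference between genotypes was not tested, because the WT libraries chose the genes. Within *myb107-2* the log2 fold change of *CYP71B2* was -0.87 (SE 0.13, adjusted p = 0.00045, edgeR), under the fold change minimum.

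*SKU5*, a cupredoxin-type protein of the cell surface that affects directional root growth, stood at 23.8, 42.0 and 48.4 CPM in WT at 11 DAP. It was at 14.5 to 18.4 CPM after 6 h, at 13.3, 11.8 and 17.43 CPM after 48 h, and at 17.56, 35.95 and 84.6 CPM at 13 DAP. Its lowest warm WT library was 1.007 times its highest library at 48 h, the smallest such ratio of the 31 genes (median 1.61). Without replicate 3 of 13 DAP the rule did not choose it. In *myb107-2* *SKU5* fell (log2 fold change -1.42, SE 0.22, adjusted p = 0.00077, edgeR). The Glycosyl hydrolase AT5G20950 stood at 41.0, 54.6 and 44.8 CPM in WT at 11 DAP and at 23.2, 15.9 and 14.4 CPM after 48 h, and it fell in *myb107-2* (log2 fold change -1.29, SE 0.14, adjusted p = 5.4e-05, edgeR). *BAM5*, a beta-amylase that releases maltose from starch, had a mean of 31.1 CPM in WT at 11 DAP, 47.2 CPM after 6 h, 11.99 CPM after 48 h and 83.1 CPM at 13 DAP (SD 1.48, 14.3, 3.57 and 48.7, n = 3 each). Its 6 h libraries, from 31.6 to 59.7 CPM, overlapped those at 11 DAP. It fell in *myb107-2* (log2 fold change -1.48, SE 0.25, adjusted p = 0.0014, edgeR). *CPB*, a subunit of the actin capping protein, had a mean of 6.83 CPM in WT at 11 DAP and 2.46 CPM after 48 h, and fell in *myb107-2* (log2 fold change -1.18, SE 0.23, adjusted p = 0.0034, edgeR). *EXL5*, an EXORDIUM-like gene, varied widely between warm libraries, from 11.8 to 90.0 CPM in WT and from 8.42 to 63.8 CPM in *myb107-2* at 11 DAP, and was not called (log2 fold change -0.87, SE 0.48, adjusted p = 0.24, edgeR).

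*RIC1* (chromosome 2, 14174144 to 14175965), an effector of ROP GTPases that acts on microtubules, was the gene called higher in *myb107-2*. In WT it stood at 1.64, 1.2 and 2.65 CPM at 11 DAP and at 0.648, 0.158 and 0 CPM after 48 h. In *myb107-2* it stood at 1.04, 0 and 0 CPM at 11 DAP and at 0.884, 2.11 and 3.18 CPM at 11 DAP+Cold, and these groups overlap. The log2 fold change of 2.45 (SE 0.77, adjusted p = 0.043, edgeR) rests on these low counts, and the call was lost in 4 of the 6 fits without 1 library, with estimates between 1.94 and 10.06. *RIC1* overlaps AT2G33450 on the other strand. AT1G13970 and AT2G31751 also had positive estimates, of 0.20 (SE 0.30, adjusted p = 0.70, edgeR) and 0.10 (SE 1.05, adjusted p = 0.96, edgeR), and were not called. AT1G13970 stood at 2.42, 2.83 and 3.59 CPM in warm and 3.21, 2.39 and 3.53 CPM in cold *myb107-2*, against 1.34, 0 and 0 CPM in WT after 48 h.

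The remaining genes cover several families. The hydrolase AT5G47330 stood at 92.7, 98.6 and 74.9 CPM in WT at 11 DAP, at 65.2 to 71.7 CPM after 6 h and at 30.8, 25.8 and 22.7 CPM after 48 h. It fell in *myb107-2* (log2 fold change -1.31, SE 0.17, adjusted p = 0.00024, edgeR), as did AT3G27770 (-1.66, SE 0.17, adjusted p = 3.6e-05, edgeR) and the RING/U-box gene AT5G43420 (-2.40, SE 0.59, adjusted p = 0.012, edgeR). The call of AT5G43420 was lost in 1 of the 6 fits without 1 library. The RNA-binding protein gene AT1G22330 (-1.27, SE 0.62, adjusted p = 0.18, edgeR) and AT5G02550 (-0.79, SE 0.31, adjusted p = 0.095, edgeR) were not called. None of the 31 genes is on any of 15 lists of 302 genes covering heat shock, expansins, aquaporins, hormones, light harvesting, clock, flavonoids, cell division, suberin, sugar transport and cold-regulated genes. Of the 277 genes on those lists that were tested in *myb107-2*, 49 were called lower and 56 higher. Aquaporins (11 of 21 tested lower, 2 higher) and light harvesting genes (12 of 25 lower, none higher) had the largest counts of lower calls, and the 15 cold-regulated genes had 3 higher and none lower.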

How the data were processed

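The authors extracted RNA from dissected endosperm and seed coat, prepared stranded mRNA libraries, sequenced single reads, cleaned them with Trim Galore and Sickle, aligned them with HISAT2 and ran StringTie. What the authors deposited is an estimated count for each gene, already a whole number and not normalized, so no rounding was needed. Tool versions, genome build and strand setting are not given in the sources used here. The paper's text and the labels differ on the cold temperature, and the label's 13 °C is printed.

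Genes holding a date in place of a count in some files (22) and rows without a nuclear identifier (0.454% to 2.13% of a library's counts) were left out. CPM used library totals. Gene positions, names and promoters came from RefSeq for TAIR10.1, which holds all 37883 nuclear identifiers of the files. All 31 genes matched.

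The 6 *myb107-2* libraries were fitted with edgeR 4.0.16 (limma 3.58.1, R 4.3.3) on TMM-scaled counts of every gene with a count, and p-values were adjusted over all of these. Standard errors were taken from the log2 fold change and the F statistic (its size over the root of F). The fit was tested on simulated counts. Genes eligible for the annotation counts met the condition on age and had at least 1 CPM. Alternatives were DESeq2 1.42.0, other scalings, count filters, other libraries in the fit, a replicate block and leaving out single libraries. Intervals of counting error are not given. Replicate libraries differed by more than sampling noise. The genes, the lists, the tests and the rule for named genes (extreme differences, levels, p-values and 6 h responses, and the genes at the limit) were chosen with earlier results of these data known. The low oxygen list, the count of Wound-responsive genes, the HRPE and GCC box motifs, and 2 alternatives for the number of genes were added after these data were seen.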

Additional observations from a re-analysis of the deposited data

How the results depend on the processing

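The number of genes that the rule finds depended on the settings. It was 73 with TMM-scaled CPM, 49 with a pseudocount of 0.5, 18 with a pseudocount of 5, 19 at a difference of at most -1.5, 16 with the age window narrowed to 0.3, 51 with it widened to -1, and 61 without the condition on overlap. Settings chosen after seeing the data gave 61 (CPM over protein-coding genes only) and 57 (without the condition on age). Without 1 library at a time it ranged from 25 to 72, the latter without replicate 1 of WT at 13 DAP. With TMM-scaled CPM, 26 of the 31 genes were found.

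Among the 31 genes, the number called lower in *myb107-2* was between 16 and 23 under every alternative. With no fold change minimum, 2494 of all genes were lower and 2480 higher. The 1 gene called higher, *RIC1*, was not called with DESeq2, with edgeR's legacy method or with the replicate block (0 genes each). The count was between 0 and 1 without 1 library. With 10 counts required in every library, *RIC1* was left out of the fit and not tested. The median log2 fold change was -1.43 with DESeq2 and between -1.55 and -1.42 without 1 library. Replicate numbers did not pair the libraries (correlations of deviations between warm and cold *myb107-2* of -0.119, 0.0892 and -0.0151), and with the replicate block 18 of the 31 were lower and the median was -1.56. AT2G31751 had an estimate of -0.0896 with DESeq2, -0.0777 with the legacy method and -0.21 with the block, and between -8.65 and 1.09 without 1 library, and *EXL5* one between -1.31 and 0.0234. The cause of these changes was not tested. AT4G36430, AT2G31751, AT2G28315 and *RIC1* were at 0 in 3 to 5 of 18 libraries and had standard errors between 0.77 and 1.44.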
